A study of Mus musculus with 6 samples.

Results

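Genes of the interleukin-1 (IL-1) family and its receptors were followed in RAW 264.7, a mouse macrophage cell line, given 100 ng/ml of lipopolysaccharide (LPS) together with 100 pM of LPS-binding protein (LBP) for 48 h, against cells cultured for 48 h untreated. LPS comes from the outer membrane of Gram-negative bacteria, and the serum protein LBP transfers it to its receptor complex. Both RNAs were hybridised together on 6 two-dye arrays, 3 with the treated RNA in Cy5 (red) and 3 with it in Cy3 (green), and each orientation held sets 1, 2 and 3. Every value below is the log2 ratio of treated over untreated cells, so a positive ratio means more RNA in treated cells. A change in RNA per cell and a change in the share of cells that hold the RNA cannot be told apart in such ratios. The list named 10 genes, and its members were the probes that the platform annotation assigns to them. These were 20 of 16281 probes and covered 9 of 10698 genes, because no probe carried the symbol Il1rl1 in the annotation used here. Of the 20 probes, 16 had a ratio on all 6 arrays and entered the fit, which covered 8 genes. The others were both Il1f6 probes, 1 of 2 Il1rn probes and 1 of 3 Il18bp probes. On these, at least 1 array listed exactly 0, which was treated as missing.

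IL-1 alpha (Il1a) and IL-1 beta (Il1b) are secreted alarm signals that act through the receptor Il1r1 and its accessory chain Il1rap, which recruit the adaptor Myd88 and Irak kinases. The antagonist Il1rn occupies Il1r1 without signalling, and Il1r2 is a decoy receptor that lacks a signalling domain. IL-18 (Il18) is a relative with receptors of its own and is held in check by the soluble binding protein Il18bp. Il1b and Il18 are made as precursors that caspase-1 cleaves, and macrophages exposed to LPS are a classical source of Il1b.

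The treated cells held more RNA of both IL-1 agonists, of their antagonist, of Il18 and its binding protein, and of the accessory receptor chain. Of the 8 member genes fitted, 6 rose and 0 fell (limma, adjusted p under 0.05). Among all 9160 genes fitted, 15.0% were called higher and 12.8% lower. At an unadjusted p under 0.05, 7 of the 8 were higher and 1 was lower, against 19.7% and 19.5% of all genes. The increases ran from 1.49-fold for Il18bp to 11.5-fold for Il1b. The signalling receptor Il1r1 and the decoy Il1r2 did not pass. The median ratio of the 8 genes was 0.84, beside -0.01 over all genes. At least a 2-fold difference was seen in 4 of the 8 genes and in 315 of 9160 genes. The 6 arrays gave 1 direction in 7 of the 8 genes, against 30.9% of all genes. The direction of the ratio follows the labels, which name the Cy5 RNA as test. Induction of Il1b had also been used earlier to settle that sign, so the direction of Il1b is partly an input. The sign applies to every probe, so the directions of the other members and the counts called higher or lower rest on it too. Whether a member moved with Il1b or against it does not.

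The promoters of the genes with the 3 largest increases are shown because Il1b and Il1a, which neighbour each other in mouse gene order, rose together with Il1rn of the same chromosome. The sequences are RefSeq's (GRCm38.p6), written 5′ to 3′ on the strand of the gene, from 250 bases before to 50 after a transcript start. Il1b and Il1a lie on the minus strand and Il1rn on the plus strand. Capitals mark letters that match any of 7 motifs searched on both strands.
Il1b, chr2:129371090-129371389: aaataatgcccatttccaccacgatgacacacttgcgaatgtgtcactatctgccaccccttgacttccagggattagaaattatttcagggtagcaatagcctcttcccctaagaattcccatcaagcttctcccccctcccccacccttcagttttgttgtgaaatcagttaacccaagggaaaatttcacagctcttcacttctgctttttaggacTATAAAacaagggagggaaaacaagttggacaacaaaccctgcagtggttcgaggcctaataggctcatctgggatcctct
Il1a, chr2:129309923-129310222: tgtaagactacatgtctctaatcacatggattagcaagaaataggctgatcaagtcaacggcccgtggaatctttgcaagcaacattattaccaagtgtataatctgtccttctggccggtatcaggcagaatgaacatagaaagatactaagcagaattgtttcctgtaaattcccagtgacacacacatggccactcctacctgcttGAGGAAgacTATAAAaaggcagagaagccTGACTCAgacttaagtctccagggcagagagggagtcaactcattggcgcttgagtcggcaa
Il1rn, start 1, chr2:24336610-24336909: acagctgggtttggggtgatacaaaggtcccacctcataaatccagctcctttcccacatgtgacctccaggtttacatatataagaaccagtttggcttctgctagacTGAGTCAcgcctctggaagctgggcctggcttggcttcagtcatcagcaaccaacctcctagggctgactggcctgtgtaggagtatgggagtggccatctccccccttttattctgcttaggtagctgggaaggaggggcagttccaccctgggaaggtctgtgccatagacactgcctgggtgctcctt
Il1rn, start 3, chr2:24345121-24345420: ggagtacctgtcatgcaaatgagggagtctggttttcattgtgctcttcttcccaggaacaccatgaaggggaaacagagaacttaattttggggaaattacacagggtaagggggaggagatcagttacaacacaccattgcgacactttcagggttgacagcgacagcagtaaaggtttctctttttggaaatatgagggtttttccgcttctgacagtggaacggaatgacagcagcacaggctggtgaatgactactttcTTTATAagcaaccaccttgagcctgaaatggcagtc
The letters TATAAA begin 31 bases before the start of Il1b and 32 before that of Il1a, and 13.6% of 32851 promoters hold them on either strand. The Il1a window also holds GAGGAA, a core bound by PU.1 (28.3% of promoters), and an AP-1 match to TGANTCA (7.81%). At start 1 Il1rn holds an AP-1 match, and at start 3 only the reversed TATA letters, downstream of the start. Its window at start 2, which overlaps that at start 3, had 0 matches and is not printed. Matches overlapped in none of the printed windows. The letters of the other motifs, which were TTGCNNAA (C/EBP, 10.8% of promoters), TTCNNNGAA (STAT, 8.3%), the ISRE (3.44%) and the NF-kB consensus (8.46%, both by name), are not in these windows. The array ratios do not tell which Il1rn start was used.

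Il1b was measured by 3 probes, all high on every array. Averaged over its probes, Il1b read 3.34, 4.02 and 4.04 on the arrays of sets 1, 2 and 3 with treated RNA in Cy5. With treated RNA in Cy3 it read 3.01, 3.35 and 3.39. The array with the lowest ratio was that of set 1 with treated RNA in Cy3, and both arrays of set 1 lay below those of sets 2 and 3 in the same orientation. The mean over sets was 3.53 ± 0.30 (SD, n = 3; 11.5-fold; limma, adjusted p = 1.14e-06), which ranked Il1b 12th of 9160 genes. Its probes differed in size but not in direction. Probe 3465 gave 3.79 ± 0.31, probe 11552 gave 3.42 ± 0.22 and probe 1321 gave 3.36 ± 0.38, and the last 2 carry the same transcript accession.

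Il1a, the agonist that is active without cleavage, was even across sets. It read 3.26, 3.05 and 3.08 on the arrays with treated RNA in Cy5, and 3.17, 3.08 and 3.03 on those with it in Cy3. All 6 arrays lay between 3.03 and 3.26. The mean was 3.11 ± 0.09 (8.64-fold; limma, adjusted p = 5.85e-07), and the 2 probes gave 3.14 ± 0.14 and 3.09 ± 0.11.

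Il1f6, an IL-36 agonist that signals through another receptor of the family, gave values on a subset of arrays, and its 2 probes disagreed. Probe 8282 read 1.40 and 1.04 on sets 1 and 2 where Cy5 marked the treated RNA, and 1.02, 1.35 and 1.39 on sets 1, 2 and 3 with treated RNA in Cy3, and was listed at 0 on the remaining array. All 5 of its values were above 0. A fit that accepted probes with both orientations of at least 2 sets dropped set 3 and gave 1.20 ± 0.01 (SD, n = 2; 2.30-fold; limma, adjusted p = 4.71e-05), where 13.5% of 14524 probes were called higher. With zeros kept as values it stood at 1.03 and was not called (adjusted p = 0.0612). Probe 6003 was listed at 0 on both arrays of set 3. It read 0.22 and 0.26 for sets 1 and 2 on the arrays with treated RNA in Cy5, and -0.40 and -0.11 on those with it in Cy3. Its sign therefore followed the dye, and its mean in the same fit was -0.01 ± 0.11 (adjusted p = 0.982).

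**Figure D1:**
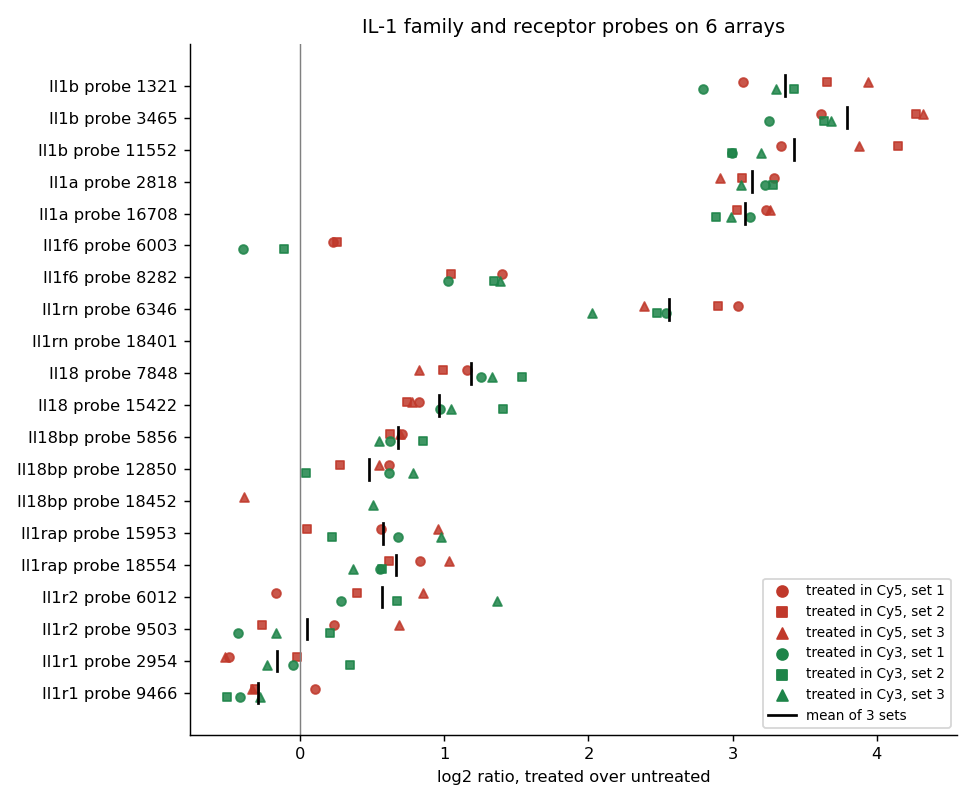
Each point is the log2 ratio of treated over untreated cells on 1 array for 1 probe, with colour for the dye of the treated RNA, shape for the set and a bar for the mean of 3 sets; ratios listed at 0 are left out. The probes of Il1b and Il1a lie between 2.79 and 4.32 on all arrays, while those of Il1r2 and Il1r1 lie on both sides of 0.

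The antagonist Il1rn rose beside the agonists. Its fitted probe, 6346, read 3.03, 2.90 and 2.39 on the arrays with treated RNA in Cy5, and 2.54, 2.47 and 2.02 on those with it in Cy3. Set 3 was lowest in both orientations, whereas for Il1b it was highest. The mean was 2.56 ± 0.31 (5.89-fold; limma, adjusted p = 5.10e-06). The other Il1rn probe, 18401, was listed at 0 on all 6 arrays and gave no measurement.

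Il18 and Il18bp, a cytokine and the soluble protein that neutralises it, both rose by less than the IL-1 agonists. Il18 read 0.99, 0.87 and 0.80 on the arrays with treated RNA in Cy5, and 1.11, 1.47 and 1.19 on those with it in Cy3. Every array with treated RNA in Cy3 lay above every array with it in Cy5. Over sets the mean was 1.07 ± 0.09 (2.10-fold; limma, adjusted p = 6.91e-05), with probes at 1.18 ± 0.10 and 0.96 ± 0.10. Il18bp read 0.66, 0.45 and 0.62 on the arrays with treated RNA in Cy5, and 0.62, 0.45 and 0.67 on those with it in Cy3, so set 2 was lowest in both orientations. The mean was 0.58 ± 0.11 (1.49-fold; limma, adjusted p = 0.00192). Its probe 5856 was even at 0.68 ± 0.06, and probe 12850 gave 0.48 ± 0.28 with its lowest array at 0.04. Probe 12850 was not called without set 3 (adjusted p = 0.0619) or with zeros kept (adjusted p = 0.155). The third Il18bp probe, 18452, had values only in set 3, at -0.39 with treated RNA in Cy5 and 0.51 with it in Cy3.

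Among the 3 receptor chains fitted as genes, only Il1rap passed. It read 0.70, 0.33 and 1.00 on the arrays with treated RNA in Cy5, and 0.62, 0.40 and 0.67 on those with it in Cy3, with set 2 lowest in both orientations. The mean was 0.62 ± 0.24 (1.53-fold; limma, adjusted p = 0.00388). With zeros kept as values, where 8.81% of 10698 genes were called higher and 5.93% lower, the same ratio had an adjusted p of 0.0525. Its probe 18554 gave 0.66 ± 0.06 and probe 15953 gave 0.57 ± 0.42. Probe 15953 was not called without set 3 (adjusted p = 0.072), with zeros kept (0.21) or with treated RNA in Cy5 only (0.0825).

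Il1r1, the receptor through which both agonists signal, was slightly below 0 on all 6 arrays when its 2 probes were averaged. It read -0.19, -0.17 and -0.43 on the arrays with treated RNA in Cy5, and -0.23, -0.08 and -0.25 on those with it in Cy3. The mean was -0.23 ± 0.11 (95% interval -0.42 to -0.03; limma, adjusted p = 0.0853). The single probes were less uniform than their average. Probe 9466 was at -0.29 ± 0.13 and was the 1 of 16 member probes called lower (adjusted p = 0.0466; 12.2% of 12724 probes were called lower), with 1 array above 0, set 1 with treated RNA in Cy5, at 0.11. That call was lost under 7 of 11 alternatives (adjusted p = 0.023 to 0.373 over all 11), and without set 1, set 2 or set 3 it had adjusted p = 0.0525, 0.188 and 0.134. Probe 2954 was at -0.16 ± 0.29 and did not pass (adjusted p = 0.346).

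The decoy Il1r2 differed between its 2 probes. Probe 6012 read -0.17, 0.40 and 0.85 on the arrays with treated RNA in Cy5, and 0.28, 0.67 and 1.36 on those with it in Cy3, with set 1 lowest in both orientations. Its mean of 0.57 ± 0.53 was called higher (limma, adjusted p = 0.0406; 14.8% of probes were called higher), but not without set 2 or set 3 (adjusted p = 0.152 and 0.158). In all, the call of probe 6012 was lost under 5 of 11 alternatives. The others were zeros kept (adjusted p = 0.288), treated RNA in Cy5 only (0.228) and a robust variance model (0.0558). Probe 9503 was above 0 on 3 arrays and below on 3, with a mean of 0.05 ± 0.19 (adjusted p = 0.781). Averaged, Il1r2 stood at 0.31 ± 0.35 (95% interval 0.01 to 0.61; adjusted p = 0.122). Without set 1 the gene stood at 0.47 and passed (adjusted p = 0.016). In all, 13 of the 16 probes fitted were called higher.

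**Figure D2:**
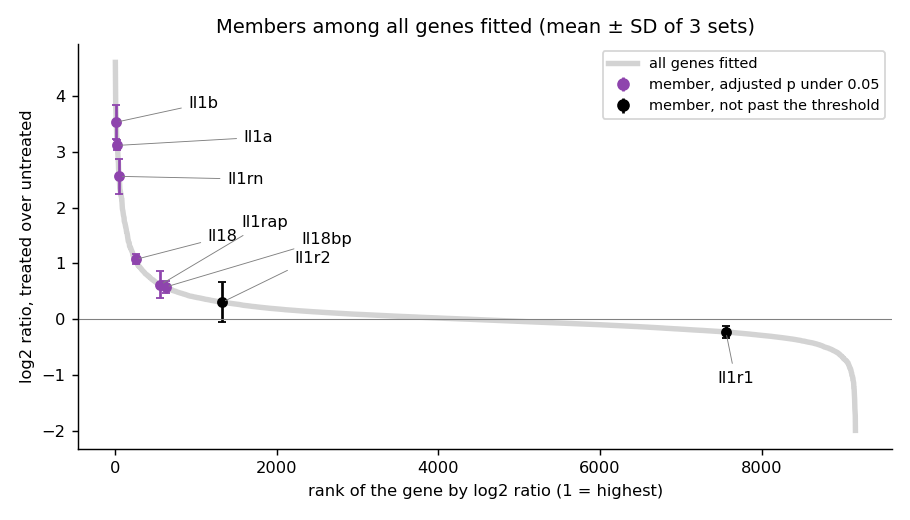
The grey curve orders all 9160 genes fitted by log2 ratio (vertical axis) from highest to lowest rank (horizontal axis), and points with bars are the 8 member genes as mean ± SD of 3 sets. Il1b, Il1a and Il1rn hold ranks 12, 26 and 44, while Il1r1 is the member below 0, at rank 7557.

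No member probe had a dye effect past the threshold. The test took the mean of both orientations before the sign was turned, which is the shift on a single array. Of 16 member probes 0 passed (limma, adjusted p under 0.05), where 0.181% of 12724 probes did. At an unadjusted p under 0.05 the counts were 8 of 16 member probes and 26.3% of all probes. The 3 probes of Il1b leaned towards Cy5, by 0.19 to 0.36 (adjusted p = 0.0977 to 0.152). Both probes of Il18 leaned towards Cy3, at -0.19 and -0.18 (adjusted p = 0.157 and 0.184). The gap between orientations is larger than this shift. With treated RNA in Cy5 and in Cy3, Il1b probe 11552 averaged 3.79 and 3.06, and Il18 probe 7848 averaged 0.99 and 1.37. The mean of a set holds both orientations equally, so such a lean cancels in the values given above.

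**Figure D3:**
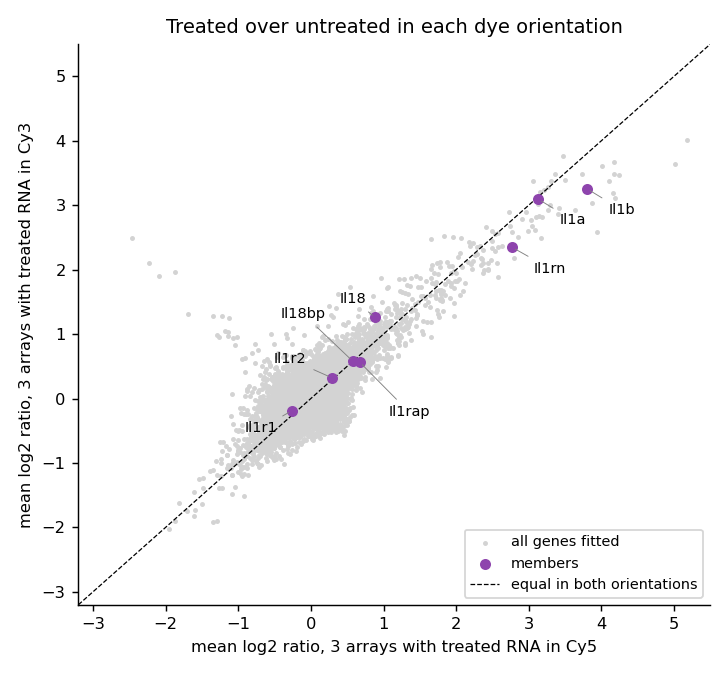
Each point is 1 gene, with the mean log2 ratio of the 3 arrays with treated RNA in Cy5 on the horizontal axis and of the 3 arrays with it in Cy3 on the vertical axis; members are purple and the dashed line marks equal values. Il1b and Il1rn lie below the line and Il18 above it.

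Members were compared within arrays in 6 pairs, each as the difference between 2 log2 ratios averaged per set. The smallest p that 3 sets allow in the two-sided exact sign-flip permutation test is 0.25, so no difference could pass. The ratio of Il1b exceeded that of its antagonist Il1rn by 0.97 ± 0.56, on 6 of 6 arrays (exact p = 0.25, adjusted p = 0.3 over 6 pairs). That of Il1a exceeded that of Il1rn by 0.55 ± 0.26, also on 6 arrays. Il1b and Il1a were closer, at 0.42 ± 0.39, with set 1 at -0.04 (exact p = 0.5). Il18 exceeded its binding protein by 0.49 ± 0.20 and the decoy Il1r2 exceeded Il1r1 by 0.53 ± 0.44, each on 6 arrays. Il1b exceeded Il18 by 2.46 ± 0.31. These are differences between changes and say nothing of which RNA was more abundant.

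**Figure D4:**
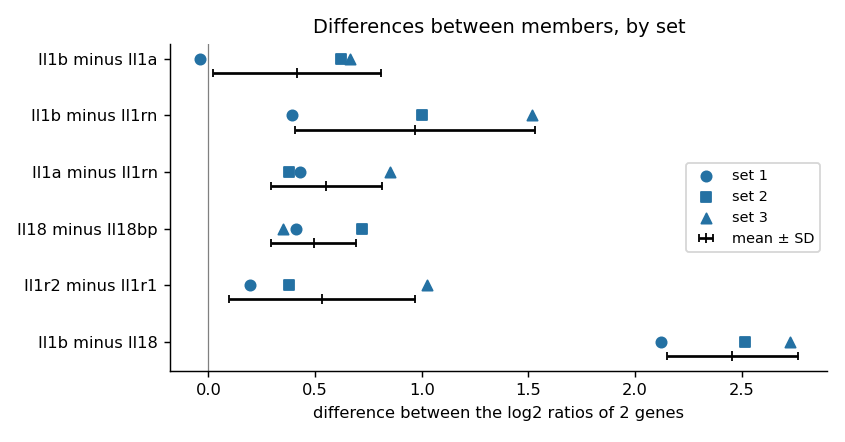
The horizontal axis is the difference between the log2 ratios of 2 member genes, with a marker for each set and a bar for the mean ± SD of 3 sets. Il1b minus Il1a is the 1 pair with a set below 0, at -0.04, and Il1b minus Il18 is largest, at 2.46.

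Other genes of the family were mostly flat. Of 7 such genes on the array 6 could be fitted, with a median ratio of 0.01. Of these, 1 rose and 0 fell, near the shares over all genes (15.0% higher, 12.8% lower). The gene that rose was Sigirr, a receptor that dampens IL-1 and Toll-like receptor signals, at 0.36 ± 0.21 (limma, adjusted p = 0.0314), with 1 array below 0. Without set 3, Sigirr stood at 0.24 and did not pass (adjusted p = 0.162), nor did it pass with set as a random block (0.36, adjusted p = 0.0665), with zeros kept (adjusted p = 0.111) or with treated RNA in Cy5 only (adjusted p = 0.255). The IL-18 receptor chains Il18r1 and Il18rap were at -0.14 ± 0.18 and 0.06 ± 0.26, and Il1rl2, the IL-36 receptor, at 0.03 ± 0.24. Il1rapl2, a neuronal relative of Il1rap, was at -0.01 ± 0.25 and Il1f5, the IL-36 antagonist, at -0.07 ± 0.14. None of these 5 passed (adjusted p = 0.314 to 0.979).

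Il33, an alarmin whose receptor is encoded by Il1rl1, was not among the genes fitted over 3 sets because its probe was listed at 0 on both arrays of set 3. Over the other 4 arrays it read 2.25 and 2.25 on those with treated RNA in Cy5, and 2.71 and 1.89 with it in Cy3. Its ratio was well above 0 on each of them. The fit over probes with at least 2 sets gave 2.28 ± 0.29 (SD, n = 2; 4.84-fold; limma, adjusted p = 1.36e-06), where 13.5% of 14524 probes were called higher. That value rests on a single probe and 2 sets. It leaves out set 3, which would enter as 0 if zeros were kept. The receptor of Il33 was not analysed here.

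The signalling chain below the receptors moved little. Of 18 fitted genes of IL-1 receptor signalling, 1 rose and 1 fell (all genes: 15.0% higher, 12.8% lower), with a median of -0.06. The adaptor Myd88 rose by 0.44 ± 0.19 (limma, adjusted p = 0.012) and the kinase Irak1 fell by 0.40 ± 0.13 (adjusted p = 0.0122), each in 1 direction on 6 arrays. Neither call held in every leave-one-set-out fit. Myd88 had adjusted p = 0.0576 without set 2 and 0.0555 without set 3, and Irak1 had 0.0674 without set 3. The ubiquitin ligase Peli1 was at 0.25 ± 0.15 and the kinase Mapk14 at -0.21 ± 0.03 without passing.

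Among genes of the inflammasome and of IL-1 processing or release, 6 of 18 rose and 0 fell (all genes: 15.0% higher, 12.8% lower). Their median was 0.10. Casp1, the protease that matures Il1b and Il18, averaged 1.31 ± 1.28 (limma, adjusted p = 0.0377) on 1 fitted probe. It read 2.80 and 2.77 on the 2 arrays of set 1, but between 0.32 and 0.86 on the other 4. Without set 1 it stood at 0.57 (adjusted p = 0.00221). Its call was lost with zeros kept (0.65, adjusted p = 0.224), with treated RNA in Cy5 only (adjusted p = 0.116), with scaled ratios (adjusted p = 0.0518) and with a robust variance model (adjusted p = 0.13). Casp4, the sensor of intracellular LPS, rose more evenly between set means, by 0.82 ± 0.11 (adjusted p = 3.41e-04). Its lowest and highest arrays were both in set 2, at 0.28 with treated RNA in Cy5 and 1.13 with it in Cy3. The lowest genes were Mefv, which encodes pyrin, at -0.20 ± 0.21 and the protease gene Capn1 at -0.10 ± 0.13, and neither passed.

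Regulators of Il1b transcription or mRNA decay rose in 17 of 25 cases and fell in 0 (all genes: 15.0% higher, 12.8% lower). Their median was 0.56. The highest was Zfp36, which encodes tristetraprolin, a protein that promotes decay of cytokine mRNAs, at 2.14 ± 0.26 (4.41-fold; limma, adjusted p = 7.50e-06). The anti-inflammatory cytokine Il10 followed at 1.87 ± 0.38 (adjusted p = 5.13e-05). The lowest were the RNA-stabilising Elavl1 at -0.25 ± 0.13 and Jun at -0.07 ± 0.13, which did not pass (adjusted p = 0.0656 for Elavl1). With set as a random block Elavl1 was called lower (adjusted p = 0.0446), and the counts were 16 higher and 1 lower. Genes that IL-1 is known to induce, most of which LPS induces too, rose in 16 of 25 cases and fell in 0. Their median was 0.62, and of all genes 15.0% were called higher and 12.8% lower. The chemokine Ccl2 at 3.92 ± 0.15 (adjusted p = 3.73e-07) and the cytokine Il6 at 3.81 ± 0.62 (adjusted p = 8.08e-06) led this group. Its lowest members, Socs3, a feedback inhibitor of cytokine signals, at -0.22 ± 0.25 and the chemokine Ccl7 at -0.09 ± 0.12, did not pass. Ccl7 had 1 of 3 probes fitted, and with zeros kept as values its 3 probes averaged 1.41 (adjusted p = 0.045). Both lists were chosen with earlier results of these data known.

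**Figure D5:**
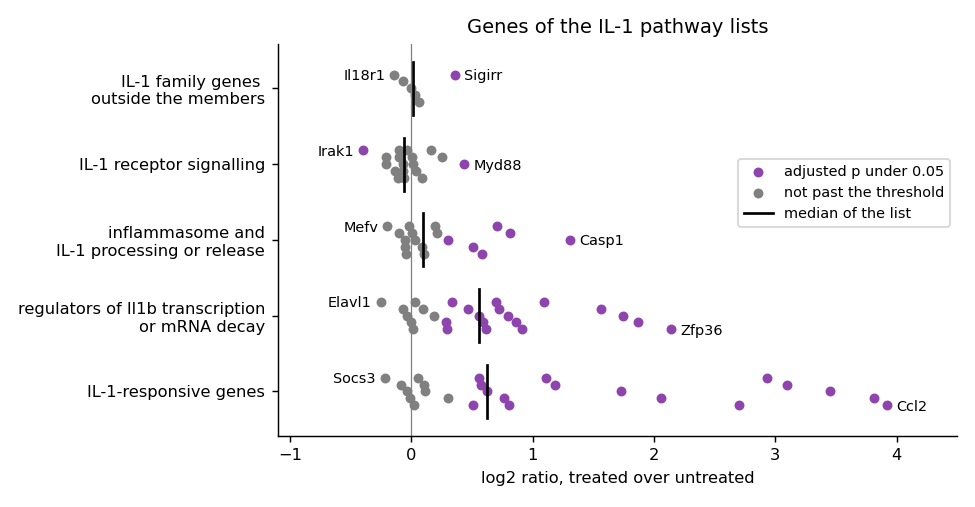
Each point is the log2 ratio of treated over untreated cells (horizontal axis) for 1 gene of 5 lists, purple where adjusted p was under 0.05, with a bar at each list's median and names for its highest and lowest gene. The medians are 0.56 for regulators of Il1b and 0.62 for IL-1-responsive genes, and between -0.06 and 0.10 for the other lists.

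The ratios hold no levels, so the labelled cell type could not be checked against the abundance of its markers. Of 8 fitted macrophage markers, 2 rose, led by Fcgr1 at 1.96, and 1 fell, Csf1r at -0.53. Among markers of other cell types, 1 of 5 fibroblast genes (Dcn, 2.68), 1 of 4 B cell genes (Cd79a, 0.63) and 1 of 6 T cell genes (Il7r, 0.49) rose. Of 3 NK cell, 5 neutrophil, 4 mast cell, 3 endothelial and 2 epithelial genes, 0 were called in either direction. Over all genes 15.0% were called higher and 12.8% lower, and 1 call in a list of this size is near those shares. With set as a random block, with zeros kept or with treated RNA in Cy5 only, 0 of the 6 T cell genes were called higher. With treated RNA in Cy3 only, 1 NK cell gene was called higher, and 1 T cell and 1 fibroblast gene were called lower. With no replicate block, 1 neutrophil gene was called lower. The part of these markers in the member ratios was not tested. Before signs were turned, correlations were taken across all probes with exact zeros kept as values. They were -0.66 to -0.41 between arrays of unlike orientation and 0.67 to 0.77 between arrays of like orientation. Over probes with a value on all 6 arrays, those of unlike orientation correlated at -0.78 to -0.56. Between 7.97% and 17.8% of the values of an array were exactly 0.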

How the data were processed

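RNA of treated and untreated RAW 264.7 cells was compared within 6 arrays. The deposited values are log ratios, 1 for each probe of an array, read here as log2 of Cy5 over Cy3, per the labels, which name the Cy5 RNA as test. The base of the logarithm is not given in the sources used here, and neither are background correction, dye normalization and spot filters. Ratios reach 6.12, and with a natural logarithm the folds would be larger. Exact zeros were treated as missing, as probable placeholders. Signs were turned on the 3 arrays with treated RNA in Cy3, and both orientations of a set were averaged. The 3 set means were fitted against 0 with limma 3.58.1 (R 4.3.3; intercept, eBayes, two-sided, Benjamini-Hochberg over all features, threshold 0.05), over 12724 probes with a value on all 6 arrays and over 9160 genes, the averages of probes with 1 symbol. Of 16281 probes, 13738 had 1 symbol, 52 several and 2491 none. SDs are over set means (n = 3). Nothing in the labels says that sets came from separate cultures. The p-values therefore rest on spread between sets, which may be technical, and the number of arrays limits the precision. The eBayes step pooled the spread of each feature, with 2 residual degrees of freedom, with a prior drawn from all features. That prior had 5.8 degrees of freedom for genes and 6.3 for probes, so it outweighed the feature's own spread. A gene could thus pass with an SD close to its mean, as Casp1 did. The fit was run on simulated ratios drawn without a set effect, which cannot check the choice of the set as replicate. All columns of values were mapped to a sample. Alternatives changed the treatment of zeros, the replicate unit, the arrays used, scaling, the variance model, probe averaging and the base of the logarithm. The text names all members, every measured gene of the family outside them, and the 2 highest and 2 lowest genes of each pathway list. For marker lists it names called genes or the leading one, with counts for the rest. Members and lists were chosen with earlier results of these data known. Promoters are RefSeq's (GRCm38.p6), matched by symbol. No genome build is named for the probes, so the GRCm38.p6 coordinates and gene order are RefSeq's, reached through gene symbols.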

Additional observations from a re-analysis of the deposited data

Results flagged for a closer look

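The Il1r1 probe 9466 read 0.11 on the array of set 1 with treated RNA in Cy5, against -0.51 to -0.28 on the other 5 arrays, and this gap was large for 6 arrays by Dixon's criterion at the 95% level. Each of the 16 member probes with 6 values, 1 with 5 and 1 with 4, and the 8 member genes were examined, and chance flags about 1 in 20 of such groups.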

How the results depend on the processing

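Of 104 repeats of a member gene's ratio under an alternative, 99 kept direction and call, 1 lost the call, 4 gained it and 0 reversed. Il1b, Il1a, Il1rn, Il18 and Il18bp passed under each of 13 alternatives. Il1rap lost its call with zeros kept (adjusted p = 0.0525). Il1r1 gained one with no replicate block (adjusted p = 0.0283), Il1r2 without set 1, and both when the probe with the largest mean stood for the gene. Member genes called lower numbered 1 with no replicate block, against 0, and set as a random block changed no member gene's call. The single member probe called lower was not called (0 probes) with zeros kept, with the replicate block, with treated RNA in Cy5 only, with scaled ratios, or without any 1 set (0 to 0). Member genes called higher ranged from 6 to 7 and member probes from 10 to 14 over the alternatives. Genes called lower numbered 634 with zeros kept, against 1171, and 747 to 886 with a set left out. Deviations from orientation means correlated between the arrays of a set at 0.53, 0.08 and 0.17 (sets 1 to 3), which does not show for set 2 that its arrays pair, and the consensus correlation was 0.355. With a natural logarithm Il1b would be 34-fold, Il1a 22.4-fold and Il1rn 12.9-fold higher. With zeros kept, Il1rn stood at 1.28, since its second probe is 0 throughout, and the gaps to Il1b and Il1a were 2.25 and 1.83.

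Applied after seeing the data to genes named from lists, the same alternatives turned the sign of 7 genes. Ccl7 stood at 1.41 with zeros kept and at 0.70 with at least 2 sets, where more of its probes enter. With treated RNA in Cy5 only, Il18rap stood at -0.060 and Il1rl2 at -0.10. With it in Cy3 only, Il1rapl2 stood at 0.25, Jun at 0.16 and Socs3 at 0.23. Leaving out a set gave Il1rl2 -0.095 to 0.15, Il1f5 -0.11 to 0.012, Il18rap -0.059 to 0.20 and Il1rapl2 -0.15 to 0.071. Scaled ratios gave Il1rapl2 0.013. Except for Ccl7, none of these values was called. Socs3 was called lower with treated RNA in Cy5 only (-0.67, adjusted p = 0.0438). The cause was not tested.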

Other observations

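Genes beside the members were taken from the mouse gene order (RefSeq, GRCm38.p6, protein-coding genes). No neighbour of Il1rap was fitted, and Il1f5 was the only 1 fitted beside Il1rn and Il1f6. Over all genes 15.0% were called higher and 12.8% lower. The fitted genes on either side of Il1a and Il1b did not share the increases of this pair. The nearest fitted neighbours of this pair were Slc20a1, a phosphate transporter, at -0.30 ± 0.16 (limma, adjusted p = 0.0447) and Sirpa, an inhibitory receptor of macrophages, at -0.39 ± 0.08 (adjusted p = 0.00973). Both were lower in treated cells, Sirpa on 6 of 6 arrays and Slc20a1 on 5. The genes between them and the pair, Ckap2l and F830045P16Rik, were not fitted. Beside Il18, none of the fitted neighbours passed, and they were Pts at 0.10, Bco2 at 0.02 and Tex12 at 0.34 (adjusted p = 0.375, 0.887 and 0.088). Around Il18bp, Lrrc51 rose by 0.53 ± 0.07 (adjusted p = 0.00248) and Rnf121 by 0.29 ± 0.11 (adjusted p = 0.0396), while Numa1, a spindle protein gene, fell by 0.39 ± 0.10 (adjusted p = 0.0109). The remaining fitted neighbour of Il18bp, Xntrpc, was at -0.34 ± 0.28 and did not pass (adjusted p = 0.0588). On chromosome 1, Il1r2 and Il1r1 lie in a row with Il1rl2, Il1rl1, Il18r1 and Il18rap. The 5 fitted genes of this row ranged from -0.23 for Il1r1 to 0.31 for Il1r2, and none passed, and neither did Map4k4 beside them at 0.03 (adjusted p = 0.838).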
